A study of Mus musculus with 4 samples.

Results

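Ablim1, Zmiz1, Aopep, Macrod2, Pard3, Pdzd2, Arid5b and Sgms1 are mouse genes with many YAP peaks in and around them. They were chosen by their number of peaks in the wild-type list, 26 or more each, counting a peak for a gene when its summit, the highest point of the peak, lay inside the gene span or within 100 kb of it with no other protein-coding gene nearer. The 8 genes are 8 of 21631 protein-coding genes in the annotation used. They held 120 of 14879 peaks of the knockout list and 229 of 36576 peaks of the wild-type list.

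The peaks come from chromatin immunoprecipitation and sequencing (ChIP-seq) of YAP in epidermal cell suspensions from the skin of adult mice, Bmal1 KO or Bmal1 WT, 18 to 25 weeks old and sampled at ZT4 (Zeitgeber time, counted in hours from lights on). The labels call the genotype Bmal1 KO in one field and Bmal1cKO in another, and the sources used here do not say in which cells the gene was deleted. Each genotype has 1 pooled peak list, and the sources used here do not say what went into the pool. The study also labels an input sample for each genotype, for which no file was analysed here. Because replicates are lacking, no test was run and every value below describes these lists.

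YAP is a transcriptional co-activator without a DNA-binding domain of its own. It reaches DNA mostly through TEAD factors, often at enhancers that also carry AP-1 sites, and the Hippo kinases keep it out of the nucleus. In epidermis YAP is known for sustaining the growth of basal progenitor cells. BMAL1 drives transcription in the circadian clock by binding E-box sequences as a dimer with CLOCK.

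The strength of a peak is given as recovered summit reads, the whole number of ChIP reads at the summit that the authors' deposited fold and −log10 p imply. An evenly spread background of 9.63 reads was recovered in both lists, so the reads of KO and WT summits are on the same scale. Summits of the KO list had a median of 52 reads and summits of the WT list a median of 61. WT peaks that shared 1 bp or more with a KO peak are called kept, and the others WT-only. Peaks do not read transcript levels, so the labelled tissue cannot be checked from them. Of 9 keratinocyte marker genes, 9 had a linked KO peak and 9 a linked WT peak. The numbers were 1 and 1 of 5 fibroblast, 0 and 2 of 4 immune, 1 and 1 of 3 endothelial and 1 and 3 of 4 melanocyte marker genes. Over all protein-coding genes, 30.1% had a linked KO peak and 53.2% a linked WT peak.

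The starts of these genes show which stretches of promoter YAP peaks covered, and the sequences are given for the 5 starts whose window a peak overlapped in both lists and for 1 whose window a WT peak alone overlapped. RefSeq lists 17 starts for the 8 genes, and the window runs from 250 bases before to 50 after each start. A KO peak overlapped 5 of the 17 windows and a WT peak 13, while a WT peak overlapped 25.6% of all 32851 promoter windows. The genes were picked for many WT peaks, those over their starts included, so the number of windows with a WT peak follows in part from the choice. The share of all windows with a KO peak was not computed. Starts 1 and 2 of Sgms1 lay under the same WT peak, as did the starts of Macrod2. Capitals mark GGAATG, the core of the TEAD motif, and TGANTCA, the AP-1 motif, each searched on both strands, so that GGAATG can appear as CATTCC. The sequences are from RefSeq, build GRCm38.p6 (mm10), written 5′ to 3′ in the direction of transcription.
Ablim1 start 2, chr19:57274619-57274918, minus strand: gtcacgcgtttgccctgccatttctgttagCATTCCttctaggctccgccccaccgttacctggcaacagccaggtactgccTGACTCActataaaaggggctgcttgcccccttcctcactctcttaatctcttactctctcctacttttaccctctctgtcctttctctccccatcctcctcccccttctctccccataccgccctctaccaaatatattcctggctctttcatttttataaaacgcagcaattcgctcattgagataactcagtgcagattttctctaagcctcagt
Ablim1 start 4, chr19:57197582-57197881, minus strand: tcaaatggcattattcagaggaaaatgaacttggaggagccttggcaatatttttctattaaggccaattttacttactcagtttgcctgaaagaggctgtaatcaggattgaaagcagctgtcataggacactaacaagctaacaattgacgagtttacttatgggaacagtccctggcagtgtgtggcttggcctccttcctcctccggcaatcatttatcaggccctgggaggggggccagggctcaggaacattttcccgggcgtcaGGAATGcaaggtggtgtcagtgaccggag
Sgms1 start 4, chr19:32210964-32211263, minus strand: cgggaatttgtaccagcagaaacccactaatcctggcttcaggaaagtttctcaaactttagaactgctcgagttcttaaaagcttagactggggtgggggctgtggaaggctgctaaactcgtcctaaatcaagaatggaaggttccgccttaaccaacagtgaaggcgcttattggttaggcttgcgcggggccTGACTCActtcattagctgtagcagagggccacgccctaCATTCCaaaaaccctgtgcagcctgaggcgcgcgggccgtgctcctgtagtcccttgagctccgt
Pdzd2 start 1, chr15:12739843-12740142, minus strand: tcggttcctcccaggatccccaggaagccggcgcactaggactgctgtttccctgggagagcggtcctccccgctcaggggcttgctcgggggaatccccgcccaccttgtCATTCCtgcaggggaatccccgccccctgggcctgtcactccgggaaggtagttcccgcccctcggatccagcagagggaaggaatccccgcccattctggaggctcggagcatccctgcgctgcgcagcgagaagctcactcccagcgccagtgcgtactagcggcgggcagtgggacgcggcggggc
Pard3 start 1, chr8:127063806-127064105, plus strand: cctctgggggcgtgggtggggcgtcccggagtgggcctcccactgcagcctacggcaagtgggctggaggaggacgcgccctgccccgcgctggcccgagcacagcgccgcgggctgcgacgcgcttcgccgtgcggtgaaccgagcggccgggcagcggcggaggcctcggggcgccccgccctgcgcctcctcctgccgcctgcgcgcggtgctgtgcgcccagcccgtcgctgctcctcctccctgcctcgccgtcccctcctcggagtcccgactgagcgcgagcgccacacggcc
Sgms1 start 2, chr19:32388000-32388299, minus strand: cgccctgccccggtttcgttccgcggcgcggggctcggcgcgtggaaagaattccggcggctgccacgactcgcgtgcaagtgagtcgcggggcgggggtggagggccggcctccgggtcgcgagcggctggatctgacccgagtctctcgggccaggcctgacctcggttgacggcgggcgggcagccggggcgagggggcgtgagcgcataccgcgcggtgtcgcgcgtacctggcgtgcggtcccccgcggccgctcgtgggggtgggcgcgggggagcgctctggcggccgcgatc

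The strongest of these starts lay inside the genes and not at their 5′ ends. Sgms1 start 4, the most downstream of 4 starts, had 107 reads in KO and 182 in WT, with the WT summit 1 bp from the start. Ablim1 start 4, of 5, had 87 reads in KO and 165 in WT, under the widest WT peak of the 8 genes, 2601 bp. Ablim1 start 2 had 55 reads in KO and 90 in WT. By contrast the 5′-most start of Pdzd2 had 32 reads in KO and 52 in WT, and that of Pard3 had 40 in KO and 71 in WT. The Sgms1 window with 77.3% G and C, start 2, lay under a WT peak of 95 reads that no KO peak overlapped.

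GGAATG was present in 4 of the 5 windows overlapped in both lists, in 0 of the 8 overlapped by a WT peak alone and in 1 of the 4 without a peak. TGANTCA was present in 2 of those 5 windows, Ablim1 start 2 and Sgms1 start 4, and in 0 of the other 12. The E-box CACGTG, a palindrome, was in none of the 17. Over all 32851 promoter windows of the same length, 14.7% hold GGAATG, 7.81% TGANTCA and 7.15% CACGTG. In the windows that a WT peak overlaps anywhere in the genome, the shares are 13.4%, 5.70% and 11.5%. A match of letters is no measure of binding, and windows this few say nothing of motif frequency. Most peaks of the 8 genes lie away from starts, with 7 of 120 KO summits and 11 of 229 WT summits within 1 kb of one, and their sequences were not used here.

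The number of WT peaks chose the genes and is given as a description. Just inside the limit were Arid5b and Sgms1 with 26 linked WT peaks each, and Nfib with 26 also reached it. Just outside were Arid1b and Casz1 with 25 each. Rad51b (53), Tiam1 (35), Maml3 (28) and Rora (27) reached the limit too and are not among the 8 genes. In the order above, the linked peaks numbered 22 in KO and 32 in WT at Ablim1, 16 and 31 at Zmiz1, 16 and 29 at Aopep, 16 and 29 at Macrod2, 10 and 28 at Pard3, 8 and 28 at Pdzd2, 17 and 26 at Arid5b, and 15 and 26 at Sgms1. The KO list had fewer peaks than the WT list at each of the 8 genes, by 1.45 times at Ablim1 up to 3.50 times at Pdzd2. The genes were picked on WT peaks alone and the KO list is the smaller one, so this follows in part from the choice. Over the 8 genes the WT to KO ratio of peak numbers was 1.91, against 2.46 over all peaks. The ratio depended on the limit on peaks. At a −log10 q of at least 40 the 8 genes had 10 KO and 44 WT peaks, out of 1266 and 5029 in the lists. At a fold of at least 8 they had 9 and 50, out of 1093 and 5391. Neither limit is the same number of reads in both lists, because their scaling of ChIP to input differed.

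Most of these peaks lay within the gene bodies, 109 of 120 in KO (90.8%) and 203 of 229 in WT (88.6%), against 50.9% and 53.3% of all peaks in the KO and WT lists. Of 990 protein-coding genes with spans of at least 200 kb, 362 had no WT peak inside, and the median was 0.41 WT peaks per 100 kb. The 8 genes had a median of 8.23 WT peaks per 100 kb. They are long genes picked for many WT peaks, so a high inside share and a high density follow in part from the choice. Arid5b, whose span of 187 kb falls below that length, had 12.3 per 100 kb, Ablim1 10.6, Zmiz1 10.5 and Sgms1 9.36. Pdzd2 had 7.10, Aopep 6.92 and Pard3 4.19. Macrod2 had 1.40 over its span of 1998 kb. Of the 990 long genes, 253 were denser than Macrod2, 66 denser than Pard3 and at most 10 denser than any other of the 8. Among the 59 genes of at least 1 Mb, 1 was denser than Macrod2. The long genes closest to the median density of the 8 were Nhsl1 (8.32 WT peaks per 100 kb), Rad51b (7.99), Tiam1 (7.81), Sh3pxd2a (8.80) and Cers6 (7.51).

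**Figure D1:**
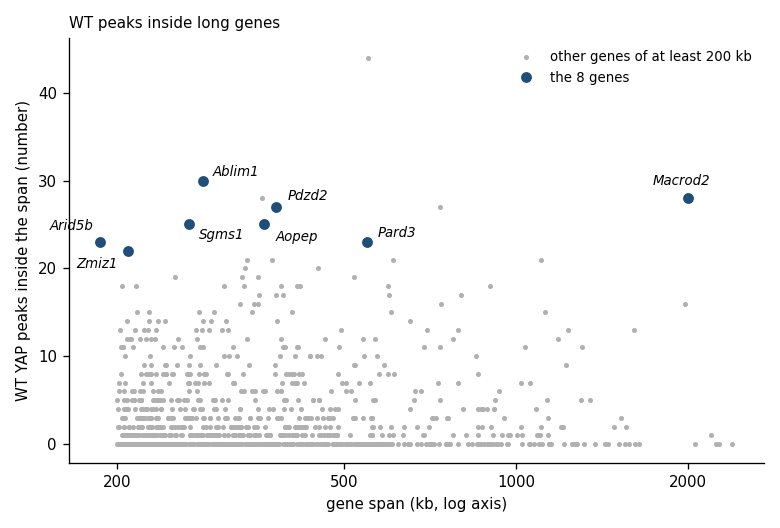
Number of WT YAP peaks inside the gene span (vertical axis) against span length in kb (horizontal, log axis) for genes of at least 200 kb and for the 8 genes, each point 1 gene. The 8 genes hold 22 to 30 WT peaks inside, and Macrod2 is the longest of them at 1998 kb.

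Ablim1 (gene 226251, chromosome 19 from 57032733 to 57315344, minus strand) encodes a LIM-domain protein that binds actin filaments. Its strongest WT peak, from 57272651 to 57273991, had 114 reads in KO and 184 in WT, a log2 KO to WT ratio above background of -0.74. It lay 1202 bp from start 2, and the peaks over starts 2 and 4 are given with their sequences above. The other peaks of 130 or more WT reads had 83 reads in KO and 147 in WT (start at 57174995), 85 and 140 (57182052), 77 and 138 (57241255), 70 and 133 (57127872), and 74 and 133 (57112167). In each of these the KO summit was the lower one, as at 99.6% of all kept WT peaks. The lowest ratio among peaks of at least 80 WT reads was at 57098094 to 57098751, with 55 reads in KO and 127 in WT (log2 -1.37), and the highest at 57238064 to 57239817, with 61 and 92 (-0.68). The strongest WT-only peak, from 57152319 to 57152854, had 81 WT reads. No WT summit lay beyond 79.2% of the gene span from the 5′ end, and 12 of 30 inside WT summits lay between 60% and 80%.

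Zmiz1 (gene 328365, chromosome 14 from 25457875 to 25666743, plus strand) encodes a PIAS-like co-regulator of transcription that works with NOTCH1 and nuclear receptors. It had the most peaks outside its span, 6 in KO and 9 in WT, of which all WT peaks lay upstream and 4 were kept. The farthest, from 25357770 to 25358513, had 86 reads in KO and 151 in WT and lay just within the 100 kb limit. Another upstream peak, from 25414918, had 76 reads in KO and 144 in WT. The strongest peak of the gene, from 25475978 to 25477525, lay near the 5′ end of the span. It had 66 reads in KO and 154 in WT, the lowest ratio of the gene (log2 -1.36). The highest was at 25500552 to 25501155 with 71 reads in KO and 112 in WT (-0.74). Just inside the 5′ end of the span lay the summits of 4 WT peaks of 45 to 71 reads, all WT-only. Among them was the strongest WT-only peak of the gene, from 25457530 to 25458690 with 71 reads. On the other side of the 5′ end, 3510 bp upstream of the span, a WT peak from 25453939 to 25454813 was kept. It had 67 reads in KO and 112 in WT. A WT peak of 102 reads covered the microRNA gene Mir3075, with its summit 226 bp from it. The KO peak that it overlapped had 57 reads and ended at 25534413, short of Mir3075. Zmiz1 also had 2 of the 4 KO-only peaks of the 8 genes, with 34 reads (from 25381238 to 25381611, upstream) and 39 reads (from 25674272 to 25674598, 7670 bp past the span).

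Arid5b (gene 71371, chromosome 10 from 68092523 to 68279355, minus strand) encodes an ARID-domain DNA-binding protein that acts with the histone demethylase PHF2. It was the shortest and densest of the 8 genes. Its strongest peak, from 68238155 to 68238751, had 87 reads in KO and 162 in WT (log2 -0.98). The lowest ratio of all 75 kept peaks of at least 80 WT reads at the 8 genes was here, at 68103563 to 68104878, with 41 reads in KO and 96 in WT (-1.46). The highest of this gene was at 68156696 to 68158013 with 69 and 111 reads (-0.77). In the 5′ part, from 68230389 to 68280432, 12 WT peaks lay within 50.0 kb, and 8 of them were kept. The nearest WT peak to the listed start, with its summit 260 bp upstream and its edge short of the start, had 67 reads and was WT-only, while its neighbour from 68276474 had 57 reads in KO and 115 in WT. The strongest WT-only peak, from 68253954 to 68254459, had 68 reads.

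Sgms1 (gene 208449, chromosome 19 from 32122727 to 32389885, minus strand) encodes sphingomyelin synthase 1, a Golgi enzyme that makes sphingomyelin from ceramide. Its strongest peak, from 32345956 to 32346793, had 114 reads in KO and 193 in WT (log2 -0.81) and lay 2943 bp from start 3. The next was the peak over start 4 shown above. Peaks from 32263569 and 32189851 had 103 and 105 reads in KO and 171 and 162 in WT. With 4 KO summits of 100 or more reads, Sgms1 had more of these than any other of the 8 genes. The lowest ratio was at 32272519 to 32273461 with 48 reads in KO and 113 in WT (-1.43), next to a peak with 79 and 146. The highest was at 32378575 to 32379604 with 80 and 115 reads (-0.58). The WT peak over starts 1 and 2, from 32387867 to 32388574, had 95 reads and was the strongest WT-only peak of the 8 genes.

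Pard3 (gene 93742, chromosome 8 from 127063381 to 127612286, plus strand) encodes PAR3, a scaffold of the polarity complex with PAR6 and atypical protein kinase C, known in epidermis for tight junctions and spindle orientation. Its peaks were mostly weak, with 4 of 28 WT peaks at 80 reads or more, the fewest of the 8 genes. The strongest, from 127405625 to 127406413, had 103 reads in KO and 157 in WT (log2 -0.66). The lowest ratio among the 4 was at 127143548 to 127144170, with 83 and 153 reads (-0.97). The highest was upstream at 127025293 to 127025858, with 68 and 101 reads (-0.65). WT summits were crowded into the first 20% of the span, 15 of 23 inside, and 4 of these 15 were kept. The strongest WT-only peak, from 127099459 to 127099962, had 68 reads and lay there too. A KO-only peak of 29 reads, from 127440992 to 127441434, lay 13 bp from a WT peak.

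Pdzd2 (gene 68070, chromosome 15 from 12359711 to 12739968, minus strand) encodes a protein with several PDZ domains, protein-binding modules of scaffolds. It had the fewest KO peaks, 8, and the closest pair of its KO summits was 17286 bp apart, against 1036 bp for its WT summits. A few strong peaks stood above the rest. The strongest, from 12573368 to 12574155, had 124 reads in KO and 211 in WT (log2 -0.82). The next, from 12490407 to 12491678, had 123 and 192 reads, the highest ratio of the gene (-0.69). The lowest was at 12433811 to 12434522 with 42 reads in KO and 91 in WT (-1.33). Close to that peak were 2 WT-only peaks of 87 reads (from 12429713 to 12430860) and 83 reads (from 12442087). Of 11 WT summits between 60% and 80% of the span from the 5′ end, 2 belonged to kept peaks.

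Aopep (gene 72061, chromosome 13 from 62964893 to 63326096, plus strand) encodes aminopeptidase O, a zinc peptidase of the M1 family. It held the strongest WT summit of the 8 genes, from 63280024 to 63281139, with 113 reads in KO and 231 in WT (log2 -1.10). An upstream peak from 62927229 had 109 reads in KO and 166 in WT (-0.65). The lowest ratio was at 63272007 to 63273248 with 54 and 107 reads (-1.13) and the highest at 63187024 to 63187550 with 75 and 99 reads (-0.45). The last 20% of the span held 10 of 25 inside WT summits, 4 of them kept. The 4 WT peaks at the 3′ end also lay inside Fancc, a DNA repair gene that overlaps Aopep, and 1 of these was kept, with 38 reads in KO and 42 in WT. The strongest WT-only peak of the gene, from 63315903 to 63316427 with 73 reads, was among them.

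Aopep also contains a microRNA cluster with Mir23b, Mir27b and Mir24-1, and Mir3074-1 on the other strand over Mir24-1. The mature products that the RefSeq annotation used here lists for the cluster are shown with the seed, bases 2 to 8, in capitals. For Mir23b and Mir3074-1 only the 5p product was listed, so the set may be incomplete. Sequences are from RefSeq, build GRCm38.p6, and no seed is shared between the products shown.
mmu-miR-23b-5p, chr13:63300492-63300512, plus strand: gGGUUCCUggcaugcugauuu
mmu-miR-27b-5p, chr13:63300718-63300739, plus strand: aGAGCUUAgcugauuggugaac
mmu-miR-27b-3p, chr13:63300760-63300780, plus strand: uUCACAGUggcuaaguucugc
mmu-miR-24-1-5p, chr13:63301213-63301235, plus strand: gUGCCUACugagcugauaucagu
mmu-miR-24-3p, chr13:63301251-63301272, plus strand: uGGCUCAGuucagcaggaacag
mmu-miR-3074-5p, chr13:63301249-63301270, minus strand: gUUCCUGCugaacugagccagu
No KO summit lay within 19.9 kb of this cluster. A WT-only peak of 50 reads had its summit 12 bp from the Mir23b hairpin, and another of 55 reads had its summit 3 bp from the Mir24-1 hairpin and inside the Mir3074-1 hairpin. Such weak peaks were rarely kept anywhere, 13.4% of other WT peaks from 50 to below 60 reads. Of 1005 microRNA hairpins on the annotated chromosomes, 38 (3.78%) had a KO summit within 1 kb and 113 (11.2%) a WT summit.

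Macrod2 (gene 72899, chromosome 2 from 140395303 to 142392966, plus strand) encodes an enzyme that removes ADP-ribose from proteins. Its peaks lay in islands with long empty stretches, and no WT summit lay beyond 65.2% of the span from the 5′ end. From 141264983 to 141302185, a stretch of 37.2 kb, lay 8 KO peaks and 9 WT peaks, 31.0% of the WT peaks of the gene, and 7 of the 9 were kept. This island held the strongest peak, from 141278854 to 141279842, with 134 reads in KO, the highest KO summit of the 8 genes, and 197 in WT (log2 -0.59). It also held the lowest ratio of the gene, at 141264983 to 141267143, with 63 reads in KO and 123 in WT (-1.09). The highest ratio was at 140790193 to 140790955 with 122 and 166 reads (-0.48). The strongest WT-only peak, from 140703171 to 140703594, had 78 reads, and the peak over the starts at the 5′ end had 45 reads and was WT-only. Flrt3, a gene for a cell adhesion protein that lies within Macrod2, had its nearest KO summit 72890 bp away and its nearest WT summit 9781 bp away, with 35 reads.

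**Figure D2:**
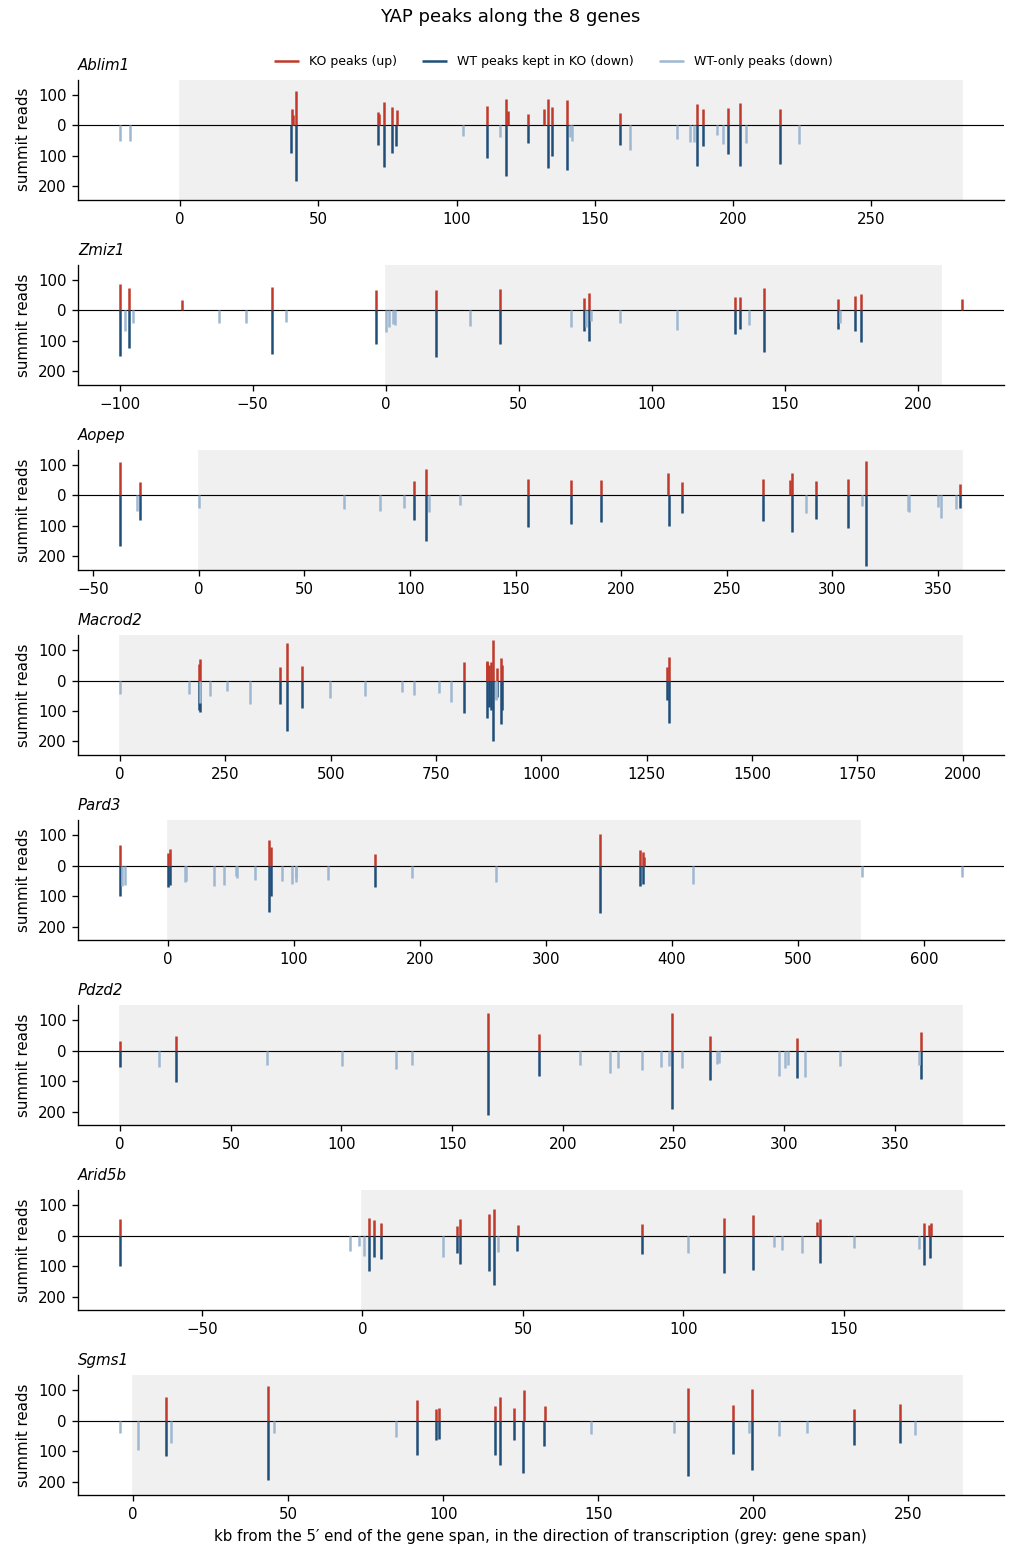
Recovered summit reads of KO peaks (upward bars) and WT peaks (downward bars, dark where kept and pale where WT-only) against distance in kb from the 5′ end of each gene span, drawn in the direction of transcription with the span in grey. Tall bars stand in both lists at the same places, and the pale bars are short, at most 95 reads.

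Over the 8 genes, 109 of 229 WT peaks were kept in KO (47.6%, exact Clopper-Pearson 95% interval 41.0 to 54.3), against 39.1% of all WT peaks. With the WT list reduced by score to the number of KO peaks, the shares were 85.6% at the 8 genes and 77.8% over all WT peaks. The intervals cover counting error only. Given the WT reads of these peaks and the kept shares of all other WT peaks with similar reads, 99.7 peaks (43.5%) would be kept, a value inside the interval. The kept share was 56.2% (18 of 32) at Ablim1, 45.2% (14 of 31) at Zmiz1, 51.7% (15 of 29) at Aopep, 51.7% (15 of 29) at Macrod2, 57.7% (15 of 26) at Arid5b and 57.7% (15 of 26) at Sgms1. It was 32.1% (9 of 28) at Pard3 and 28.6% (8 of 28) at Pdzd2, the lowest of the 8. All 8 intervals overlapped, so no order among the genes is read from them. From WT reads 8.53 peaks would be kept at Pard3 and 10.4 at Pdzd2, and 7 of the 8 genes, all but Pdzd2, kept more than their reads give. The excess ran from 15 kept against 14.6 at Macrod2 to 15 against 11.3 at Arid5b. At each of the 8 genes the share that the reads give lay inside the interval, so no pattern is read from this.

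**Figure D3:**
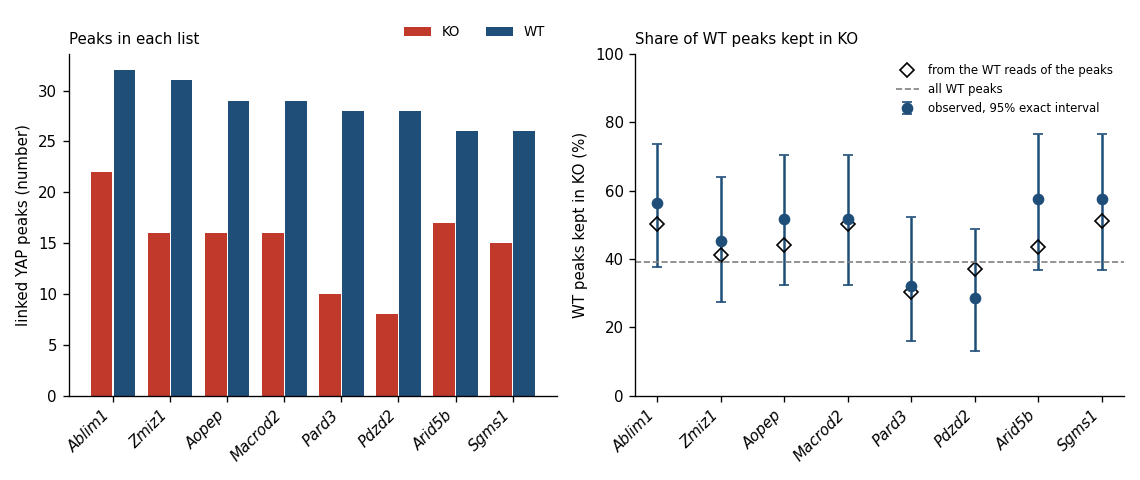
Left, number of linked peaks in the KO and WT lists for each gene. Right, percent of WT peaks kept in KO with exact 95% intervals (filled points), the percent that the WT reads of the peaks give (open diamonds) and the 39.1% of all WT peaks (dashed line), with Pdzd2 lowest at 28.6%.

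Whether a peak of these genes was kept followed its WT reads, as it did elsewhere. Below 40 reads 0 of 16 were kept, against 1.27% of other WT peaks, and from 40 to below 50 reads 2 of 45, against 3.81%. From 60 to below 70 reads 14 of 31 were kept (45.2%, interval 27.3 to 64.0), against 31.7%. From 80 to below 100 reads 23 of 27 were kept (85.2%), against 80.6%, and of 100 or more reads 52 of 52, against 98.6% of other WT peaks of that strength. Kept peaks had a median of 98 WT reads and WT-only peaks a median of 50. Of WT peaks with 80 reads or more, 75 of 79 were kept (94.9%), against 91.1% of all WT peaks of that strength. The 4 that were not were those of 95 reads at Sgms1, 87 and 83 at Pdzd2 and 81 at Ablim1, which are named above. WT peaks at least 1 kb wide made up 14.8% of the WT peaks of the 8 genes (34 peaks, 30 kept) and 9.55% of all WT peaks, of which 82.6% were kept.

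**Figure D4:**
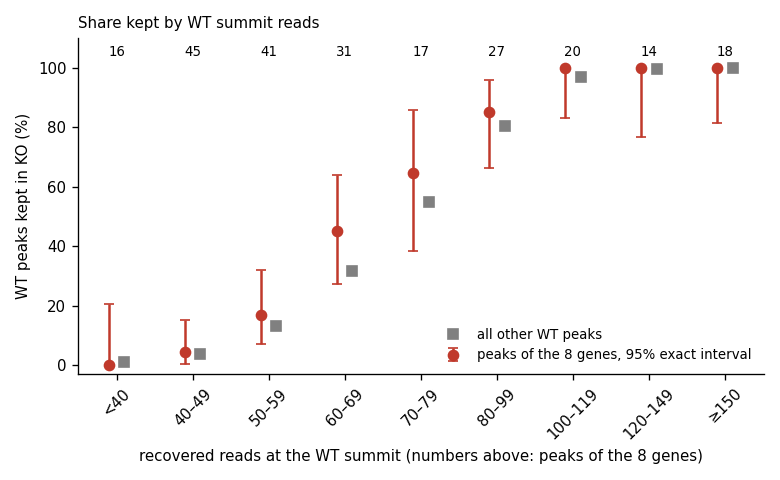
Percent of WT peaks kept in KO (vertical) by recovered reads at the WT summit (horizontal, in classes) for the 8 genes, with exact 95% intervals, and for all other WT peaks. Both sets climb from near 0 below 40 reads to 100% at 150 reads or more, and the other peaks lie inside the interval of the 8 genes in every class.

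At the kept peaks of the 8 genes the KO summit was always the lower one. KO reads above background were lower at 109 of 109 kept peaks, against 99.6% of all kept WT peaks. With 1 list per genotype, the genotype and the yield of the immunoprecipitation cannot be told apart, and in bulk chromatin fewer cells with YAP at a site cannot be told from less YAP per cell. The log2 KO to WT ratio had a median of -0.85, a ratio of 0.555, with an interquartile range of -1.01 to -0.72, against -0.88 over all kept peaks. By gene the median was -0.97 at Arid5b, -0.89 at Zmiz1, -0.89 at Macrod2, -0.87 at Pdzd2, -0.87 at Aopep, -0.86 at Ablim1, -0.81 at Sgms1 and -0.66 at Pard3. The interquartile ranges of neighbours in this order overlapped, as did those of Arid5b (-1.02 to -0.79) and Pard3 (-0.97 to -0.58). A WT peak enters this ratio only where a KO peak was called, so weak WT peaks enter with their higher KO summits. Set against other kept peaks of similar WT reads, the median difference in log2 ratio was 0.01 over the 8 genes, 0.20 at Pard3 and -0.12 at Arid5b.

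Strong peaks gave much the same picture. At 75 kept peaks of at least 80 WT reads the median log2 ratio was -0.89, against -0.93 over all kept peaks of that strength. KO reads above background were under 50% of WT at 24 of these 75 (32.0%), against 39.8% of all such peaks. Those 24 included 5 at Aopep, 4 at Zmiz1, 4 at Macrod2 and none of the 4 at Pard3. The 18 peaks of 150 or more WT reads, a limit on the WT side alone, had 66 to 134 reads in KO (median 106) and 151 to 231 in WT (median 166). Summits of kept peaks stood at nearly the same base in both lists, with a median shift of 28 bp and 2 of 109 shifts above 200 bp, against a median of 33 bp over all kept peaks.

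**Figure D5:**
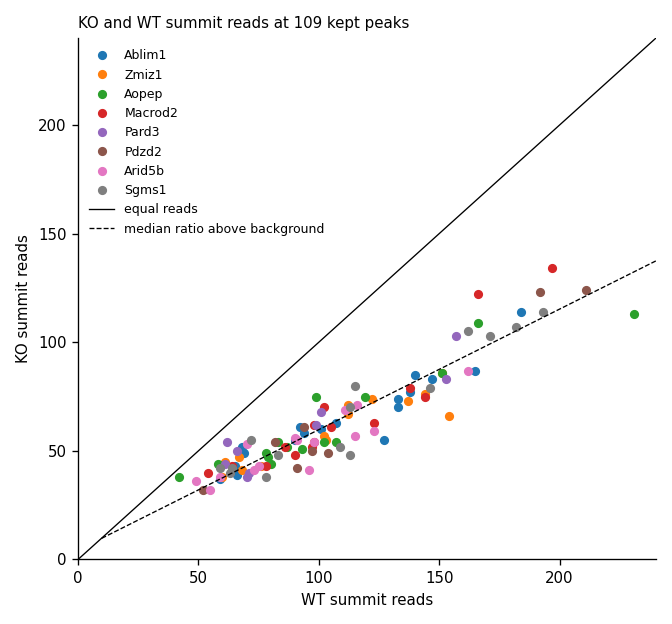
KO summit reads (vertical) against WT summit reads (horizontal) at the 109 kept peaks, each point 1 WT peak with the strongest KO peak it overlaps, coloured by gene. All points lie below the line of equal reads (solid) and scatter about the line of the median ratio above background, 0.555 (dashed).

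In the other direction, 116 of 120 KO peaks overlapped a WT peak (96.7%, interval 91.7 to 99.1), against 99.0% of all KO peaks. The 4 KO-only peaks had 29 to 39 reads. Of these, 3 are named above with Zmiz1 and Pard3, and the other, with 34 reads from 57274041 to 57274459, lay 38 bp from a WT peak near Ablim1 start 2.

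Neighbouring summits of these genes were often close together. Within the distance over which super-enhancer callers commonly stitch peaks, which lies between 5 and 25 kb, another summit of the same gene and list was found for 85 of 120 KO summits (70.8%) and 186 of 229 WT summits (81.2%), against 51.6% of all KO peaks and 69.5% of all WT peaks with any neighbour in their list at that distance. The genes were picked for many peaks, so crowding follows in part from the choice. At Ablim1 all 32 WT summits had such a neighbour, at Pdzd2 0 of 8 KO summits and 21 of 28 WT summits, and at Macrod2 12 of 16 KO summits and 14 of 29 WT summits. The median gap between neighbouring WT summits was 3650 bp at Ablim1 and 25910 bp at Macrod2. Ablim1 and Arid5b each had 12 WT peaks within a 50 kb window, of which 5 and 8 were kept.

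Relatives and partners of the 8 genes carried at most 25 WT peaks each. Of 46 such genes, 29 had a KO peak and 40 a WT peak (63.0% and 87.0%), against 30.1% and 53.2% of all protein-coding genes. The list was chosen with earlier results of these data known and was not matched to all genes for span, so no enrichment is read from these shares. Of the 180 WT peaks of these relatives and partners, 74 were kept (41.1%). In the polarity complex, 5 of 7 genes had a KO peak and 6 a WT peak, with 12 of 26 WT peaks kept. The strongest were linked to Prkci, an atypical protein kinase C, with 129 reads in KO and 233 in WT, and to Pard6b, a PAR6 protein, with 127 and 207. Their WT summits lay 127 bp and 2323 bp outside the gene spans. Pard3b, a paralog of Pard3 with a span of 1004 kb, had 0 KO peaks and 1 WT peak, of 66 reads. In the ARID family with Phf2, 6 of 7 genes had a KO peak and 7 a WT peak. Arid1b, a chromatin remodelling subunit, had 11 KO and 25 WT peaks, just under the limit of 26, with 156 reads in KO and 214 in WT at its strongest. Arid3b had the strongest linked peak of the list, with 157 reads in KO and 222 in WT, its WT summit 33756 bp outside the gene span.

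Among genes of sphingomyelin and ceramide synthesis, 6 of 8 had a KO peak and 8 a WT peak, with 16 of 39 WT peaks kept. Cert1, which carries ceramide to the Golgi, had 120 reads in KO and 197 in WT at its strongest peak. Cers3, a ceramide synthase of the skin barrier, had 2 KO and 11 WT peaks, and Sgms2, the other sphingomyelin synthase, 4 and 7. The 3 actin binders related to Ablim1 had 2 KO and 10 WT peaks, the strongest at Dmtn (dematin) with 89 reads in KO and 153 in WT. The 5 PIAS and PIAS-like genes had 3 KO and 10 WT peaks, with Pias1 at 72 reads in KO and 113 in WT, and Zmiz2, the paralog of Zmiz1, had 52 reads in KO and 97 in WT at its strongest. The WT summit of the Pias1 peak lay 47235 bp outside the gene span, and that of the Zmiz2 peak 255 bp. The M1 aminopeptidases had 13 KO and 17 WT peaks over 8 genes, with 12 WT peaks kept and Npepps at 99 reads in KO and 186 in WT. The WT summit of that Npepps peak lay 5614 bp outside the gene span. Macrod1, the closest relative of Macrod2, had 3 of 3 KO and 9 of 12 WT peaks of the macrodomain list, with 76 and 132 reads at its strongest. The multi-PDZ list had 5 KO and 10 WT peaks over 4 genes, with Pdzd7 at 52 reads in KO and 107 in WT.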

How the data were processed

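YAP ChIP-seq peaks of epidermis were used as 1 list for Bmal1 KO and 1 for Bmal1 WT. Trimmomatic 0.36, SAMtools 1.5, MACS2 2.1.1 and build mm10 are named, without roles, per the submitters' processing notes. The sources used here do not give the aligner or the filters. The deposited score is a whole number, 10 times the −log10 q without its decimals. The deposited fold is the authors' ratio of signal to background at the summit. The deposited −log10 p and −log10 q are the authors' values for the summit, with q limited to 0.01. Score, fold and −log10 values were compared between the lists through the reads recovered from them, and otherwise ranked or filtered peaks within a list. The exception is the peak numbers given at a shared limit of −log10 q or fold. The scaling of ChIP to input differed between KO and WT, so such a limit is not the same number of reads in both.

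Whole summit reads were solved from fold and −log10 p under Poisson scoring with Python 3.11.15 and SciPy 1.17.1, and the procedure was tested on simulated lists. The scaling of ChIP to input was 0.842 for KO and 0.694 for WT. Reads came within 0.01 of a whole number for 100% of peaks in both lists, against 3.21% (KO) and 4.72% (WT) with the scaling set 3% off. The background of 9.63 reads was subtracted from both sides of each KO to WT ratio, and a kept WT peak was paired with the strongest KO peak it overlaps. Library depths were not available beyond the 25 to 50 M reads of the labels.

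Gene spans, starts and sequences came from RefSeq tables of GRCm38.p6, which is mm10, without exons, so exon, intron and UTR positions are not given. The genes, the lists of relatives and markers and the rules were chosen with earlier results of these data known. For each gene the peaks named are the strongest WT peak, the kept peaks of at least 80 WT reads with the highest and lowest ratio, the strongest WT-only peak and every KO-only peak. Other named peaks, and the looks at starts, motifs, microRNAs, windows and widths, were chosen after values were seen. No test was made. Alternatives changed the overlap, the link to genes, the limit on peaks, the background and the pairing.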

Additional observations from a re-analysis of the deposited data

How the results depend on the processing

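The share of WT peaks kept at the 8 genes was 37.6% with 50% reciprocal overlap, 85.6% with the WT list reduced by score to the number of KO peaks and 100% for the 44 WT peaks with a −log10 q of at least 40. Over all WT peaks these settings gave 32.1%, 77.8% and 99.0%. The share of KO peaks shared with WT was 71.7% under the reciprocal rule and 90.0% when summits had to lie within 200 bp. At a −log10 q of at least 40 the genes had 10 KO and 44 WT peaks, and at a fold of at least 8 they had 9 KO and 50 WT peaks. The median log2 ratio was -0.74 without background subtraction. The median density was 4.43 WT peaks per 100 kb with the higher-scoring 50% of WT peaks and 3.58 with the reduced list. The clustered WT share was 62.0% at 5 kb and 90.8% at 25 kb. Stricter limits hold fewer and stronger peaks by construction, and the cause of the other shifts was not tested. The other 12 of 26 values stayed within the interval of the reported value or within 1.5 times a count, and no ratio changed sign. Single genes gave 80 further values, of which 20 moved beyond their interval. The weakest summits in the lists had 29 reads in KO and 28 in WT, and weaker sites were not detectable at this depth. No paired analysis was possible because KO and WT have 1 list apiece.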

Other observations

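Other genes share the spans of the 8 genes: 29 lie in or across them, of which 15 are long non-coding RNA genes and 5 microRNA genes. A KO summit lay inside 5 of the 15 long non-coding RNA genes and a WT summit inside 8. The share over all long non-coding RNA genes was not computed, and these 15 lie in spans picked for many WT peaks. When non-coding genes could also take a peak, the 8 genes held 112 KO and 210 WT peaks.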
